A study of Mus musculus with 6 samples.

Results

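The genes described here encode the oxygen-sensing prolyl hydroxylases of the HIF-1 pathway, the ubiquitin ligase subunit that reads their mark, and HIF-1 target genes outside glycolysis, with Rnf19a grouped among them. They were chosen by name as Egln1, Egln2, Egln3, Vhl, Bnip3, Bnip3l, P4ha1, Vegfa, Kdm3a and Rnf19a, and all 10 were found, each at 1 locus of its own, among the 23203 loci of the deposited expression table. All 10 passed the filter of a mean of at least 1 FPKM (fragments scaled to transcript length and to the mapped fragments of the library), which 10228 loci passed. The cells were mouse naive CD4 T cells activated for 48 h with plate-bound anti-CD3e at 10 µg/ml and anti-CD28 at 1 µg/ml under Th17 conditions, which were IL-6 at 20 ng/ml, TGFb1 at 2.5 ng/ml and IL-23 at 10 ng/ml. Cells of the 3 vehicle libraries also received DMSO and those of the 3 treated libraries 250 µM 2-deoxyglucose (2DG), a glucose analogue that is used to inhibit glycolysis. The sources used here give no strain, age or number of animals. They do not state that the 3 libraries of a treatment have separate origins, and each p-value therefore refers to a spread among libraries that could be technical.

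HIF-1 is a transcription factor made of an alpha subunit, whose protein level is set by oxygen, and of the constant partner ARNT. The EGLN enzymes (also called PHD) use oxygen and 2-oxoglutarate to hydroxylate proline residues of the alpha subunit, and VHL, the substrate receptor of an elongin and cullin ubiquitin ligase, binds the hydroxylated protein and sends it to the proteasome. When hydroxylation slows, HIF-1 accumulates and induces genes of glycolysis, mitophagy, collagen modification and blood vessel growth, and also Egln1 and Egln3, which closes a feedback loop. In T cells HIF-1 is known for supporting glycolysis and Th17 differentiation. Protein, hydroxylation and oxygen were not measured in the values used here.

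Of the 10 genes, 1 was lower and 1 was higher with 2DG, and 8 did not pass the test (limma on log2(FPKM + 1), Benjamini-Hochberg adjusted p under 0.05 over all 10228 tested loci). Over all tested loci 1.19% were lower and 1.53% higher, 2.72% together. The 10 genes were chosen with earlier results of these data known, so the contrast with these shares is no test of the pathway. The gene that fell was Egln3, the hydroxylase with the highest FPKM of the EGLN genes in these cells, and the gene that rose was Rnf19a, an E3 ubiquitin ligase. The median log2 fold change of the 10 genes was 0.15, beside -0.01 over all tested loci. An unadjusted p under 0.05 was reached by 3 of the 10 and by 17.9% of all tested loci, which is the background for such counts in every list. Groups did not overlap for 3 of the 10, Egln3, Kdm3a and Rnf19a, while 23.7% of all tested loci had groups that did not overlap. In bulk RNA a change in the share of cells that express a gene and a change in RNA per cell cannot be told apart.

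**Figure D1:**
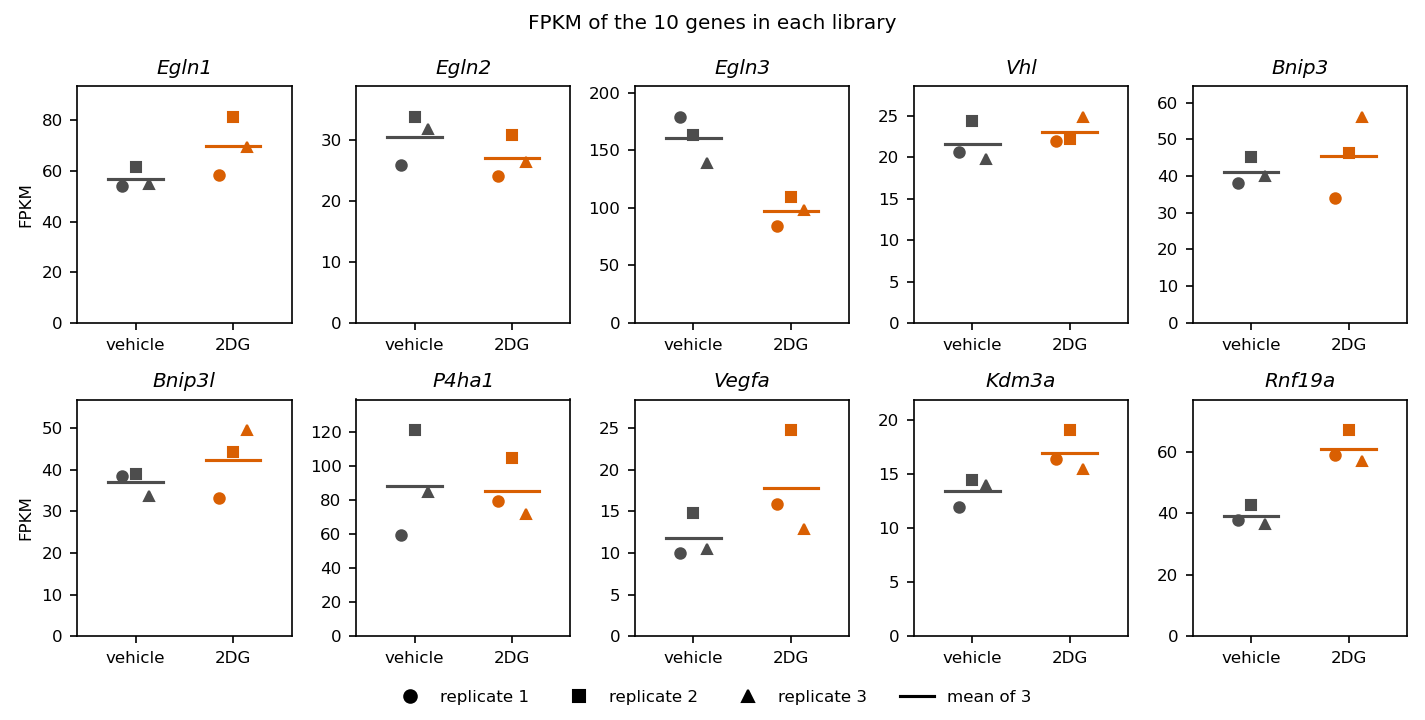
FPKM (vertical axes, from 0) of each of the 10 genes in the 3 vehicle and the 3 2DG libraries, with a symbol for each replicate number and a line for the mean of 3. Egln3 and Rnf19a are separated between the groups, from 139 to 179 against 84.3 to 109 FPKM and from 36.7 to 42.6 against 57.2 to 67.0 FPKM, and so is Kdm3a by a smaller distance; the other 7 overlap.

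**Figure D2:**
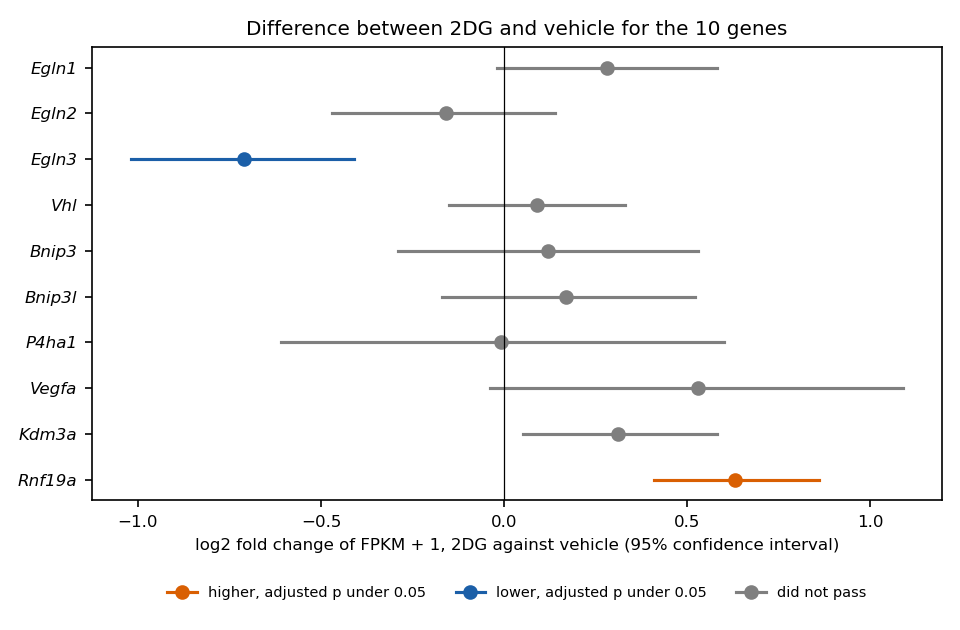
Log2 fold change of FPKM + 1 with 2DG against vehicle (horizontal axis) for each of the 10 genes, as estimated by limma, with bars for the 95% confidence interval. The intervals of Egln3 (-1.02 to -0.41), Rnf19a (0.41 to 0.86) and Kdm3a (0.05 to 0.58) leave out 0, and Kdm3a did not pass once p was adjusted over all tested loci.

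Promoter sequences are shown for genes that bear on the comparison: Egln3, which fell, and Bnip3, P4ha1 and Vegfa, targets that did not pass. Each run holds the 250 bases before the annotated start, 5′ to 3′ on the gene's own strand, from RefSeq's annotation of GRCm38.p6. Capitals mark the letters ACGTG or GCGTG, the core of the hypoxia response element that HIF-1 binds, searched on both strands (CACGT and CACGC on the reverse strand). The windows are chr12:54203875-54204124 (minus strand) for Egln3, chr7:138909507-138909756 (minus strand) for Bnip3, chr10:59323046-59323295 (plus strand) for P4ha1 and chr17:46032378-46032627 (minus strand) for the first of 2 annotated starts of Vegfa.
Egln3: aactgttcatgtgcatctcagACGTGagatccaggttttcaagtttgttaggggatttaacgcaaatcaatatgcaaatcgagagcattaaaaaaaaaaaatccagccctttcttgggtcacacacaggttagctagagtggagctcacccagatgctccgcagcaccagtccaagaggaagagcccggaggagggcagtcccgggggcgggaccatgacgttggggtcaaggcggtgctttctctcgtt
Bnip3: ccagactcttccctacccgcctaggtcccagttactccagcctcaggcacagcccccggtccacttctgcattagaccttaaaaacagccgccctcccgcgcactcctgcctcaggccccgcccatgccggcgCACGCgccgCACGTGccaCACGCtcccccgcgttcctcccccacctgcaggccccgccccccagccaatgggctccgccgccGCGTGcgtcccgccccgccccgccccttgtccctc
P4ha1: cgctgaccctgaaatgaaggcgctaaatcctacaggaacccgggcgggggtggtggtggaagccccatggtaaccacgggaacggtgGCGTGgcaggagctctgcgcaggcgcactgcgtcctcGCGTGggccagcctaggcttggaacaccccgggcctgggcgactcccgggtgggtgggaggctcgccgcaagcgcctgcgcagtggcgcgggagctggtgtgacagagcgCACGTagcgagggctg
Vegfa: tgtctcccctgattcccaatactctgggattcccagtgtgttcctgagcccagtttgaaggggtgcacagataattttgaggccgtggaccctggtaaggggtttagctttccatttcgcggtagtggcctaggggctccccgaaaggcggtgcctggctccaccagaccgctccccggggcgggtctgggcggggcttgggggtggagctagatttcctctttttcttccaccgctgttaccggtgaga
The Egln3 window held 1 match, 229 bases before the start. Bnip3 had 5 matches within its window, of which 2 are the strands of a single CACGTG, a palindrome that is also the E-box letters bound by MYC. For P4ha1 there were 3 matches, and the window of the first Vegfa start held 0, which says only that these letters are not in this stretch. The window of the second Vegfa start, not shown, held 2, at 211 and 218 bases before that start. It is chr17:46025164-46025413, which lies inside the gene, downstream of the first start. Windows of later starts of Egln2 and Kdm3a also lie inside their genes. Of the 10 genes, 8 had a promoter in the RefSeq table, with 12 windows in all because some have several annotated starts. Either core was in 8 of these 12 windows (66.7%) and ACGTG in 6 (50%). Over all 32841 annotated windows of this length, 38.6% held either core and 16.6% held ACGTG. The genes were chosen by name, and some gave several windows. The background was not matched for base composition or expression, so these shares are no test of enrichment. Vhl was the 1 gene of the 8 with neither core in any of its windows. Vegfa had cores only in the window inside the gene. A match is a run of letters and not a measured binding site, and the gene that fell and genes that did not pass both had matches.

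Egln3, the prolyl hydroxylase gene that is strongly induced by HIF itself (locus XLOC_004619, chromosome 12, 54178981 to 54203860, GRCm38), was at 179, 163 and 139 FPKM in vehicle replicates 1, 2 and 3 and at 84.3, 109 and 98.0 FPKM in 2DG replicates 1, 2 and 3. All vehicle libraries lay above all 2DG libraries. The means were 160 ± 19.9 and 97.2 ± 12.4 FPKM (SD, n = 3 each), a 1.65-fold lower level. On the log2 scale the estimate by limma was -0.71 ± 0.13 (SE; adjusted p = 0.039). The estimate stayed between -0.81 and -0.62 when any 1 library was left out, but the call was lost in each of these 6 fits (adjusted p from 0.0533 to 0.123). With replicates 2 and 3 only it was -0.54 (adjusted p = 0.201).

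Egln1, which encodes the main oxygen sensor for HIF in most cells (chromosome 8, 124908587 to 124949324), was at 54.0, 61.5 and 54.9 FPKM under vehicle and at 58.3, 81.3 and 69.4 FPKM under 2DG. Its 2DG replicate 1 lay below vehicle replicate 2, so the groups overlapped. The log2 fold change of 0.28 ± 0.13 had a 95% interval from -0.02 to 0.58 and did not pass (adjusted p = 0.308). Egln2, for the third hydroxylase of the family (chromosome 7, 27158658 to 27166802), was at 25.8, 33.7 and 31.8 FPKM under vehicle and at 24.0, 30.7 and 26.3 FPKM under 2DG, also with overlap (log2 fold change -0.16, interval -0.47 to 0.14, adjusted p = 0.566). An exon of Egln2 overlaps Cyp2t4 on the opposite strand, and no source used here states whether strand was used, but Cyp2t4 was listed at no more than 0.119 FPKM.

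Within a library the EGLN genes can be set against each other without any scaling between libraries. Egln3 made up 69.1%, 63.1% and 61.6% of the summed FPKM of Egln1, Egln2 and Egln3 in the vehicle libraries and 50.6%, 49.4% and 50.6% in the 2DG libraries. The share of Egln1 was 20.9% to 24.3% with vehicle and 35.0% to 36.7% with 2DG, and that of Egln2 10.0% to 14.1% and 13.6% to 14.4%. The pool thus held less Egln3 relative to Egln1 in every 2DG library than in any vehicle library. The ratio of Egln3 to Egln1 was 3.31, 2.65 and 2.53 with vehicle and 1.45, 1.34 and 1.41 with 2DG, or 1.49 ± 0.21 and 0.49 ± 0.05 on the log2 scale (SD, n = 3 each; exact permutation test, two-sided, p = 0.1, the smallest that 3 against 3 libraries allow; adjusted p = 0.133 over 8 ratios, which were chosen after their values were seen). Summed over the family, the level was 247 ± 18.8 FPKM under vehicle and 194 ± 27.3 FPKM under 2DG (SD, n = 3 each).

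**Figure D3:**
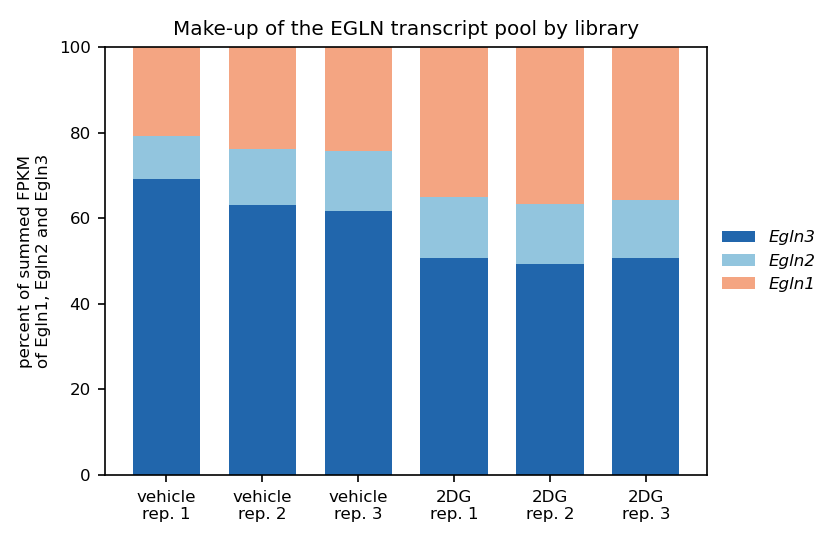
Percent of the summed FPKM of Egln1, Egln2 and Egln3 (vertical axis, 0 to 100) that each gene contributed in each of the 6 libraries. Egln3 contributes 61.6% to 69.1% in the vehicle libraries and 49.4% to 50.6% in the 2DG libraries, while the part of Egln1 is wider with 2DG.

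Vhl, the receptor that binds hydroxylated HIF (chromosome 6, 113623959 to 113631633), was at 20.6, 24.4 and 19.8 FPKM under vehicle and at 22, 22.2 and 24.9 FPKM under 2DG. The groups overlapped and the interval of its log2 fold change ran from -0.15 to 0.33. In the rest of the oxygen-sensing list (HIF asparaginyl hydroxylase, VHL ligase subunits and regulators of HIF or EGLN turnover) 0 of 9 tested genes passed in limma, 1 had an unadjusted p under 0.05, and the median log2 fold change was -0.13. That gene was Siah2, a ubiquitin ligase known to target EGLN proteins, at 13.2, 14.0 and 11.9 FPKM under vehicle and 18.3, 18.7 and 17.0 FPKM under 2DG. Its groups did not overlap, and its adjusted p was 0.0544. It passed in 5 of 18 alternative analyses, among them the one without small RNA genes (adjusted p = 0.038), and its highest adjusted p was 0.41. Tceb2, which encodes elongin B of the VHL ligase, had a log2 fold change of -0.20 (adjusted p = 0.309). Hif1an, the asparaginyl hydroxylase gene, was at 4.22 to 4.73 FPKM under vehicle and 4.53 to 5.69 FPKM under 2DG (adjusted p = 0.642).

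Among the HIF subunits and their partners 0 of 6 tested genes passed, with 2 at an unadjusted p under 0.05. Hif1a, the alpha subunit that these enzymes act on, was at 377, 261 and 282 FPKM under vehicle and at 226, 201 and 289 FPKM under 2DG. The vehicle mean was the higher one, but 2DG replicate 3 lay above vehicle replicates 2 and 3, and the difference did not pass (log2 fold change -0.36, adjusted p = 0.357). Arnt, the partner subunit, was at 8.06 to 8.74 FPKM under vehicle and 6.09 to 7.28 FPKM under 2DG, without overlap (adjusted p = 0.162). Cited2, a competitor of HIF-1 for its coactivators, was at 9.66, 9.04 and 7.65 FPKM under vehicle and at 14.5, 11.7 and 14.3 FPKM under 2DG, also without overlap (log2 fold change 0.57, adjusted p = 0.0596). It passed in 2 of 18 alternatives, without small RNA genes (0.034) and with robust eBayes (0.0349). Epas1, the gene of the HIF-2 alpha subunit, was at or under 0.0831 FPKM in every library and was not tested.

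Bnip3 and Bnip3l encode related outer mitochondrial membrane proteins that recruit the autophagy machinery to mitochondria. Bnip3 (chromosome 7, 138890836 to 138909519) was at 38.0, 45.3 and 40.1 FPKM under vehicle and at 34.1, 46.3 and 56.1 FPKM under 2DG. Bnip3l (chromosome 14, 66985239 to 67008877) was at 38.4, 38.9 and 33.7 FPKM under vehicle and at 33.3, 44.2 and 49.4 FPKM under 2DG. For both genes 2DG replicate 1 was the lowest of all 6 libraries and 2DG replicate 3 the highest, so the 2DG libraries spread around the vehicle ones. Their log2 fold changes were 0.12 (interval -0.29 to 0.53, adjusted p = 0.777) and 0.17 (interval -0.17 to 0.52, adjusted p = 0.595). Without 2DG replicate 3 the value for Bnip3 was -0.05. The ratio of Bnip3 to Bnip3l lay between 0.989 and 1.19 in all 6 libraries (exact permutation p = 0.7, adjusted p = 0.7 over the 8 ratios). Bnip3 has an antisense gene, Gm45507, that overlaps its exons, and reads of the pair cannot be told apart if strand was not used.

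In the list of other mitophagy receptors and their partners 1 of 13 tested genes fell and 0 rose, with 2 at an unadjusted p under 0.05 and a median of 0.00. The gene that fell was Gabarapl1, an ATG8-family protein of the autophagosome membrane, from 67.0, 73.1 and 69.7 FPKM under vehicle to 46.2, 48.6 and 50.2 FPKM under 2DG. Its groups lay apart, with a log2 fold change of -0.52 (adjusted p = 0.0174). That call was lost without vehicle replicate 2 or 3 or without 2DG replicate 1 or 2 (adjusted p from 0.0583 to 0.0801). It was also lost with the FPKM sums of the libraries made equal (0.227), and kept with equal sums outside small RNA genes (0.0157).

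P4ha1 encodes a catalytic subunit of the enzyme that hydroxylates prolines of collagen (chromosome 10, 59323296 to 59373304). It was at 59.7, 121 and 84.9 FPKM under vehicle and at 79.3, 105 and 72.0 FPKM under 2DG. All 2DG libraries lay within the range of the vehicle libraries, whose coefficient of variation was 34.7%. The log2 fold change of -0.01 had an interval from -0.61 to 0.60 (adjusted p = 0.993). In the list of other genes of collagen prolyl and lysyl hydroxylation 0 of 7 tested passed. The list also holds P4htm, for a transmembrane prolyl hydroxylase that is not a collagen enzyme (log2 fold change 0.11, adjusted p = 0.72). Of the 7, 2 had an unadjusted p under 0.05, and the median was -0.04. These 2 were Plod3, a lysyl hydroxylase gene (log2 fold change -0.41, adjusted p = 0.0737, at a locus that also names Mir702), and P4hb. The latter encodes the shared beta subunit of the collagen prolyl hydroxylase (0.32, adjusted p = 0.208).

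Vegfa, the growth factor gene that drives blood vessel formation (chromosome 17, 46016993 to 46032369), was at 10.0, 14.8 and 10.5 FPKM under vehicle and at 15.9, 24.7 and 12.9 FPKM under 2DG. Its mean was 1.51-fold higher with 2DG, but 2DG replicate 3 lay below vehicle replicate 2. The log2 fold change of 0.53 ± 0.24 (SE) had an interval from -0.04 to 1.09 and did not pass (adjusted p = 0.308). Without 2DG replicate 2 it was 0.28 and without 2DG replicate 3 it was 0.72. Of 9 other genes of VEGF ligands and receptors 2 reached the filter, and 0 passed the test, with 1 at an unadjusted p under 0.05. That was Nrp1, a coreceptor for VEGF and semaphorins, at 1.1, 2.44 and 3.23 FPKM under vehicle and at 6.36, 6.15 and 5.79 FPKM under 2DG (log2 fold change 1.18, adjusted p = 0.0558; its locus also names Mir1903). It passed in 7 of 17 alternatives, among them equal FPKM sums (0.0188) and leaving out vehicle replicate 1 (0.0412) or vehicle replicate 3 (0.049). Vegfb, another ligand gene, was at 4 to 5.58 FPKM under vehicle and 3.91 to 5.97 FPKM under 2DG (adjusted p = 0.95).

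Kdm3a encodes a histone demethylase that acts on lysine 9 of histone H3 and needs oxygen for its reaction (chromosome 6, 71588972 to 71632990). It was at 11.9, 14.4 and 14.0 FPKM under vehicle and at 16.4, 19.0 and 15.4 FPKM under 2DG. The groups did not overlap, and the log2 fold change of 0.31 ± 0.11 (SE) did not pass (adjusted p = 0.207, unadjusted p = 0.0268). Of 16 tested genes of other proteins with the same JmjC fold, mostly histone demethylases, 0 passed. An unadjusted p under 0.05 was reached by 0 of them, and the median was 0.06. The smallest p-values among them were those of Kdm5a (log2 fold change 0.15, adjusted p = 0.341) and Kdm5b (0.16, adjusted p = 0.404), demethylases of lysine 4.

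Rnf19a, an E3 ubiquitin ligase of the RING-between-RING class (XLOC_007034, chromosome 15, 36239933 to 36283147), was at 37.7, 42.6 and 36.7 FPKM under vehicle and at 58.9, 67.0 and 57.2 FPKM under 2DG. Every 2DG library lay above every vehicle library. The means were 39.0 ± 3.17 and 61.1 ± 5.27 FPKM (SD, n = 3 each), a 1.56-fold rise. On the log2 scale limma estimated 0.63 ± 0.10 (SE; adjusted p = 0.0194). The call was kept without vehicle replicate 2 or 2DG replicate 3 and lost without any other single library (adjusted p from 0.0626 to 0.0771), with values between 0.56 and 0.70. It was also lost with equal FPKM sums (0.114), most of which small RNA genes held, and kept with equal sums outside small RNA genes (0.0122). An exon of Rnf19a holds the microRNA gene Mir8097 on the same strand, whose reads are not separated here.

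Its paralogue Rnf19b fell. In the list of other RING-between-RING ligases 1 of 7 tested genes fell, 0 rose, and 1 had an unadjusted p under 0.05, with a median of -0.11. Rnf19b, the gene that fell, was at 117, 160 and 132 FPKM under vehicle and at 71.6, 80.1 and 75.1 FPKM under 2DG (log2 fold change -0.83, adjusted p = 0.0185). It lost the call without vehicle replicate 3 or any single 2DG library (highest adjusted p = 0.0801). Within each library the ratio of Rnf19a to Rnf19b was 0.321, 0.266 and 0.279 with vehicle and 0.823, 0.837 and 0.761 with 2DG, a difference of 1.49 on the log2 scale (exact permutation p = 0.1, the smallest possible; adjusted p = 0.133 over the 8 ratios). Mean levels of Rnf19b were 136 FPKM under vehicle and 75.6 FPKM under 2DG, above those of Rnf19a under both treatments.

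In the list of other HIF-1 targets outside glycolysis 1 of 32 tested genes rose, 1 fell and 30 did not pass, beside 1.53% higher and 1.19% lower over all tested loci. The median was 0.12, and 22 of 32 had a positive log2 fold change, beside 47.9% of all tested loci. This list, too, was chosen with earlier results of these data known, so the contrast is no test of a shift. The gene that rose was Stc2, a secreted glycoprotein, listed at 0.293, 0.960 and 1.08 FPKM under vehicle and 5.04, 9.67 and 5.16 FPKM under 2DG (log2 fold change 2.08, adjusted p = 0.0171; 0.0542 without vehicle replicate 2 and 0.0502 with replicates 2 and 3 only). Stc2 had a vehicle mean of 0.778 FPKM, under the filter of 1 FPKM, and entered the test only through its 2DG libraries. The Stc2 call is therefore no support for a rise of the list. Pim1, a serine and threonine kinase gene that cytokines also induce, fell with 2DG. It was at 149, 159 and 148 FPKM under vehicle and at 72.7, 82.6 and 79.7 FPKM under 2DG. Its log2 fold change was -0.95 (adjusted p = 0.00343), and the call was kept without each library in turn. Of the 19 glycolytic targets 0 passed in either direction and 1 had an unadjusted p under 0.05, with a median of 0.09. The latter was Pdk1, the kinase that restrains pyruvate dehydrogenase, at 47.7, 48.1 and 42.7 FPKM under vehicle and 49.0, 55.9 and 64.3 FPKM under 2DG (log2 fold change 0.28, adjusted p = 0.255). Pfkfb3, whose product makes an activator of glycolysis, had a log2 fold change of 0.40 (adjusted p = 0.303). Ldha, the lactate dehydrogenase gene, was at 1288 to 1470 FPKM under vehicle and 1175 to 1450 FPKM under 2DG (adjusted p = 0.897).

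**Figure D4:**
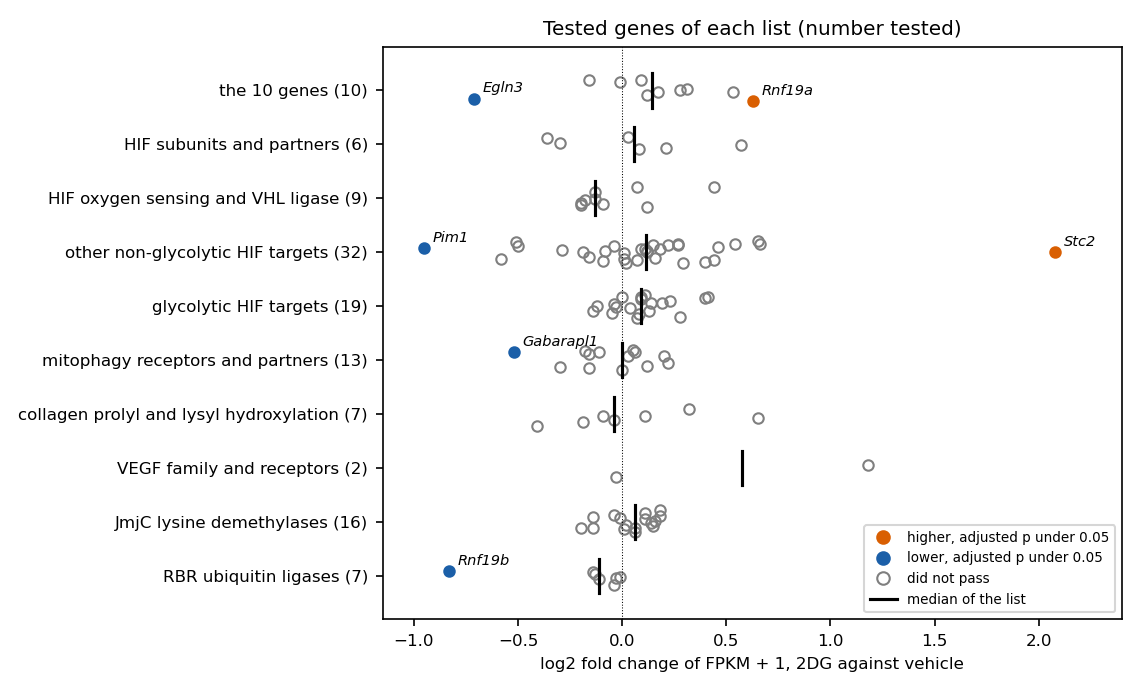
Log2 fold change of FPKM + 1 with 2DG against vehicle (horizontal axis) of every tested gene in the 10-gene set and in 9 related lists, with a line for each list's median and filled points for genes past the threshold. Filled points are Egln3, Pim1, Gabarapl1 and Rnf19b on the lower side and Rnf19a and Stc2 on the higher side, and the list medians lie between -0.13 and 0.15 except that of the VEGF list, which has 2 tested genes. Some genes stand in more than 1 list.

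The levels of the 10 genes, which FPKM allows to be compared because it is per length, spanned about an order of magnitude. In the vehicle libraries the order of mean FPKM was Egln3 (160), P4ha1 (88.5), Egln1 (56.8), Bnip3 (41.1), Rnf19a (39.0), Bnip3l (37.0), Egln2 (30.4), Vhl (21.6), Kdm3a (13.4) and Vegfa (11.8). Ranges over libraries overlapped between P4ha1 and Egln1, from Bnip3 through Rnf19a and Bnip3l to Egln2, and between Kdm3a and Vegfa. Compared within each library, P4ha1 was above Egln1, Bnip3 above Rnf19a and Bnip3l above Egln2 in 3 of 3 vehicle libraries, while Rnf19a was above Bnip3l and Kdm3a above Vegfa in 2 of 3. With 2DG the order was Egln3 (97.2), P4ha1 (85.6), Egln1 (69.7), Rnf19a (61.1), Bnip3 (45.5), Bnip3l (42.3), Egln2 (27.0), Vhl (23.1), Vegfa (17.8) and Kdm3a (16.9). There the ranges of Egln3, P4ha1, Egln1 and Rnf19a each overlapped the next, as did those of Bnip3 and Bnip3l and of Egln2, Vhl, Vegfa and Kdm3a. Within each 2DG library Egln3 was still above P4ha1 in 3 of 3, as were P4ha1 above Egln1, Bnip3 above Bnip3l and Egln2 above Vhl. The order of Egln1 and Rnf19a and of Vhl and Vegfa held in 2 of 3 libraries, and Vegfa was above Kdm3a in 1 of 3.

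Most of the 10 genes were highest in the same library of a treatment. Of the 10, 9 were highest in replicate 2 among the vehicle libraries and 7 in replicate 2 among the 2DG libraries, with 6 highest in replicate 2 of both. Over the 10048 tested loci that are not small RNA genes these shares were 42.8%, 42.0% and 26.0%, so replicate 2 held the highest value more often than the others in general. Among glycolytic targets 15 of 19 were highest in vehicle replicate 2 and 15 of 19 in 2DG replicate 2. The shares were 57.1% and 71.4% for the other RING-between-RING ligases and 50% and 68.8% for the other JmjC genes. A high replicate 2 was thus not particular to the 10 genes. P4ha1 and Vegfa spread most, with a within-group SD of 0.41 and 0.38 on the log2 scale, more than 95.8% and 97.4% of loci of a like level (within 0.5 log2 units). Rnf19a spread least, with an SD of 0.12, at the 46.2 percentile. What sets the high values of replicate 2 was not tested.

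**Figure D5:**
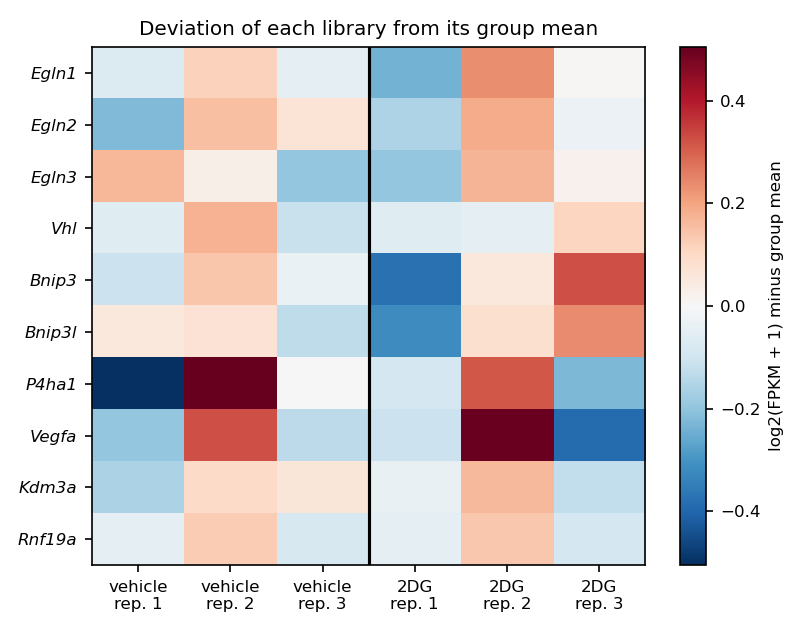
Deviation of log2(FPKM + 1) from the mean of its group (colour, red above and blue below) for each of the 10 genes (rows) in each library (columns). Replicate 2 is red for all 10 genes in the vehicle group and for 9 of 10 in the 2DG group, with the strongest colours for P4ha1 and Vegfa; 2DG replicate 1 is bluest for Bnip3 and Bnip3l.

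As a description of likeness over the 6 libraries, which includes the difference between the groups, the loci closest to Egln3 in log2(FPKM + 1) were Nt5c (Pearson r = 0.998), Ndufaf3 (0.994) and Cyba (0.992). Closest to Bnip3 were Reep1 (0.991), Ube2e2 (0.978) and Arf1 (0.966). For Vegfa these were Mtmr12 (0.995), Ctsf (0.993) and Ctbp1 (0.986). With 6 points, 129 loci exceeded r = 0.95 for Egln3, 29 for Vegfa and 4 for Bnip3.

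The label of the cells matched their markers. Of 5 T cell marker genes measured, including Cd3e and Cd4, the summed level was 740 to 823 FPKM under vehicle and 740 to 806 FPKM under 2DG, and 0 of 5 passed the test, with 0 at an unadjusted p under 0.05. Th17 markers summed to 1807 to 2114 FPKM under vehicle and 2522 to 3257 FPKM under 2DG. Most of these sums was Il17f, with means of 1501 and 1958 FPKM, whose groups overlapped and which did not pass (limma adjusted p = 0.253). Of the 7 markers 3 were higher (Rora, Il17a and Ccr6), beside 1.53% of all tested loci. The part of this shift in the results above was not tested. B cell markers summed to at most 3.71 FPKM, myeloid markers to at most 4.86 FPKM and CD8 markers to at most 5.51 FPKM in any library, and NK cell and erythroid markers to at most 0.0755 and 0 FPKM. The table holds FPKM without counts, so the depth behind each value is unknown.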

How the data were processed

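RNA of 3 vehicle and 3 2DG samples was sequenced. Per the submitters' processing notes, the tools were Cuffdiff 2.2.1.3, Cuffnorm 2.2.1.1, TopHat2 2.1.0 and Cufflinks 2.2.1.0, with the mm10 build. No source used here gives settings, annotation or the use of strand. FPKM were deposited by the authors per locus and library: 75th percentiles lay between 10.9 and 11.6 FPKM, while sums ran from 1469420 to 1958739 FPKM, of which small RNA genes held 69.8% to 76.1%. Among tested loci, no pair of libraries had exactly equal values at more than 0.479%. FPKM of overlapping or near-identical genes are uncertain.

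Loci averaging 1 FPKM or more in the 6 libraries were tested with limma 3.58.1 (R 4.3.3) on log2(FPKM + 1), with group as the only term, a trend in eBayes, two-sided p and Benjamini-Hochberg adjustment over all tested loci at 0.05. The pseudocount of 1 understates fold changes of low genes. The code was tested on simulated data. Ratios within libraries were compared by exact permutation (SciPy 1.17.1). The members and lists were chosen with earlier results of these data known. Named genes are the members, list genes past the threshold or else the 2 of smallest p, Hif1a, Arnt, Hif1an, Pdk1 and Ldha, and the 3 loci with the highest Pearson r to each of Bnip3, Egln3 and Vegfa; others named are marked or given as values. Gene positions are from GENCODE M21 (GRCm38, the assembly that mm10 denotes). Figures were drawn with matplotlib 3.10.9.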

Additional observations from a re-analysis of the deposited data

How the results depend on the processing

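Over all tested loci, 156 were higher and 122 lower with 2DG; the counts were 100 and 65 with no filter on low values, 95 and 62 with equal FPKM sums, 262 and 214 with small RNA genes left out, 247 and 199 with robust eBayes, and 43 and 28 with replicates 2 and 3 only, an alternative chosen after seeing the data, as was keeping loci of status OK. Leaving out 1 library in turn gave 52 to 98 higher and 25 to 69 lower. The 1 higher gene of the 10 (Rnf19a) became 0 with equal FPKM sums and with replicates 2 and 3 only, and 0 to 1 without 1 library. The 1 lower gene (Egln3) became 0 with no filter (adjusted p = 0.0783), equal FPKM sums (0.133), eBayes without trend (0.0512), replicates 2 and 3 only, and without any single library (range 0 to 0). The cause was not tested. Egln3 kept its direction in all 18 alternatives and its call in 7, and Rnf19a in 18 and 12.

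The replicate block adds the numbers 17, 42 and 43 of the titles to the model. With it 57 loci were higher and 44 lower, and of the 10 genes 1 was higher and 0 lower (Egln3 adjusted p = 0.0884); Gabarapl1 also lost its call (0.0514). Deviations from group means of libraries with the same number correlated at -0.05, 0.38 and -0.20. Between libraries of different numbers the correlations ran from -0.32 to 0.38. With 3 libraries per group these values cannot decide whether the number pairs the libraries, and no label says that it does.

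Small values changed sign: P4ha1 was at 0.0028 with quantile normalization, 0.0041 with equal FPKM sums, 0.05 with equal sums outside small RNA genes, and 0.24, 0.04 and 0.10 without vehicle replicate 2, 2DG replicate 1 and 2DG replicate 3. Bnip3 was at -0.05 without 2DG replicate 3. Without 1 library P4ha1 ranged from -0.26 to 0.24, Bnip3 from -0.05 to 0.31, Vegfb from -0.17 to 0.08 and Ldha from -0.10 to 0.05. In the same order of equal sums outside small RNA genes, replicates 2 and 3 only, without vehicle replicate 2 and without 2DG replicate 1, Vegfb was at 0.01, 0.11, 0.05 and 0.08 and Ldha at 0.01, 0.05, 0.01 and 0.05. Of the members that did not pass, Egln1 ranged from 0.16 to 0.40, Egln2 from -0.27 to -0.09, Vhl from 0.03 to 0.18, Bnip3l from 0.06 to 0.33 and Kdm3a from 0.23 to 0.38 without 1 library. A minimum mean of 5 FPKM gave no value for Stc2, Nrp1, Vegfb and Hif1an. Unknown depth and 3 libraries per group limit what can be detected.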

Other observations

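A few genes near the pathway were picked after their values were seen. Of these, P4ha2 and Mt1 had uneven libraries, and Mxi1 and Ankrd37 had groups that did not overlap. P4ha2, the other catalytic subunit of collagen prolyl hydroxylase, was at 11.2, 13.0 and 8.54 FPKM under vehicle and at 10.3, 23.1 and 21.9 FPKM under 2DG, so that 2DG replicate 1 lay within the vehicle range (adjusted p = 0.314). The ratio of P4ha1 to P4ha2 ran from 5.34 to 9.94 with vehicle and from 3.28 to 7.72 with 2DG. Mt1, a metallothionein gene, was at 110, 243 and 197 FPKM under vehicle and at 168, 365 and 198 FPKM under 2DG (adjusted p = 0.629), with replicate 2 highest in both groups as for P4ha1 and Vegfa. Mxi1, a MYC antagonist gene that HIF induces, was at 16.9, 21.4 and 19.2 FPKM under vehicle and at 11.2, 14.8 and 13.5 FPKM under 2DG, without overlap (adjusted p = 0.0925). Ankrd37, another HIF target, was at 16.7, 22.7 and 18.6 FPKM under vehicle and at 24.2, 33.8 and 23.4 FPKM under 2DG, also without overlap (adjusted p = 0.209). In the list of other HIF-1 targets outside glycolysis 9 of 32 tested genes had groups that did not overlap, beside 23.7% of all tested loci.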
